A study of Mus musculus with 12 samples.

Results

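The core circadian clock genes were followed in mouse liver after knockdown of the long noncoding RNA mGULL and after its replacement by the human hGULL. They comprised 10 genes, taken by name from the 55385 features of the RNA-Seq table: the activators Arntl, Clock and Npas2, the repressors Per1, Per2, Per3, Cry1 and Cry2, and the nuclear receptors Nr1d1 and Nr1d2. Liver RNA came from 12 male C57BL/6 mice, 4 in each of 3 groups, that were 7 weeks old, received adenovirus at 500000000 plaque-forming units in all, and were killed 7 days later. Ad-Ctrl mice received the control virus Lac with pAdV5, Ad-shmGULL mice received shmGULL with pAdV5, and Ad-shmGULL+hGULL mice received shmGULL together with hGULL. All 12 mice therefore carried adenovirus, and the RNA is that of the whole liver, whichever cells took up the virus. The study's methods name an intravitreal injection for this experiment and a retro-orbital one for its adenoviruses in general. The sources used here give no hour of killing, no light schedule and no feeding state for these mice, so a change in the level of a clock gene and a change in its phase cannot be told apart. Fewer cells of a type and less RNA per cell cannot be told apart either. The levels of mGULL and hGULL themselves were not analysed here, so the labels were not checked against the targeted gene.

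The clock of a liver cell is a loop of transcription. BMAL1, the product of Arntl, pairs with CLOCK or NPAS2 and binds E-boxes in the Per, Cry and Nr1d genes, and the PER and CRY proteins then return to the nucleus and block it. The receptors REV-ERBα (Nr1d1) and REV-ERBβ (Nr1d2) repress Arntl, Clock, Npas2 and Cry1 at RORE sites, where the ROR receptors activate them. In the liver of a mouse kept in light and dark, RNA of Arntl and Npas2 is high around dawn, that of Nr1d1 around midday, that of the Per genes toward dusk and that of Cry1 late in the night. Feeding and glucocorticoids also set the phase of the liver clock, and cAMP signalling through CREB induces Per1.

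Promoter sequences are shown for Cry1 and Cry2, the paralogs of 1 family whose differences from control were farthest apart, and for Arntl and Nr1d1, which are known to peak at different times of day. They are RefSeq sequences of GRCm38.p6, the build of the table, each from 250 bases before to 50 bases after the annotated start, read 5′ to 3′ on the strand of the gene. Cry1 lies on the minus strand at chr10:85185005-85185304, Cry2 on the minus strand at chr2:92434020-92434319, Arntl on the plus strand at chr7:113207261-113207560 (the second of its listed starts) and Nr1d1 on the minus strand at chr11:98775328-98775627. Capitals mark matches, on either strand, to the E-box CACGTG, its variant CACGTT, the RORE core TAGGTCA and its variant TAGGTTA, the D-box TTATGNAA and the CRE TGACGTCA or its part TGACGT.
Cry1: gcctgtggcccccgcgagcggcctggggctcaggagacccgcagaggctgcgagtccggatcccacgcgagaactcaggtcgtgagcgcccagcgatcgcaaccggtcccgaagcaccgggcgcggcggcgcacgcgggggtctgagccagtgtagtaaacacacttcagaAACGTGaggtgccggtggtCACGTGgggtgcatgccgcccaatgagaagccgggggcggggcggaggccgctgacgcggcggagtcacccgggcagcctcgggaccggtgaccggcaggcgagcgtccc
Cry2: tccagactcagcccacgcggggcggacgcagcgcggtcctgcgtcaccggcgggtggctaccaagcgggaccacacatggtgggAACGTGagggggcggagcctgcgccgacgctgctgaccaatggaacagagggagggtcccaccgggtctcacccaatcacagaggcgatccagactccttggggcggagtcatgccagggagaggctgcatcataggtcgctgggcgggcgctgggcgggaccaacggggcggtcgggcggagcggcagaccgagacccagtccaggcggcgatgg
Arntl: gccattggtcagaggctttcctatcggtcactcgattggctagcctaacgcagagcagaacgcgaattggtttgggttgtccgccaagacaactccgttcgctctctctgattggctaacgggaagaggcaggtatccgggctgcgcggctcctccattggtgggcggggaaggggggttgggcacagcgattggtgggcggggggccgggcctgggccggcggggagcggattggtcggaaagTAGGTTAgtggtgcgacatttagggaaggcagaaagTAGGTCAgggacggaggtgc
Nr1d1: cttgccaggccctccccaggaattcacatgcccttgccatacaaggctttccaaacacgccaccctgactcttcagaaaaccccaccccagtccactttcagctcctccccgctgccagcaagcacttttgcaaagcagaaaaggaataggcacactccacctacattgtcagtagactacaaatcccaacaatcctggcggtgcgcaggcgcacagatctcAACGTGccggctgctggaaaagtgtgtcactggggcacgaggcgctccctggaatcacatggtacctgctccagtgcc
In Cry1 the E-box began at position -60 from the start, and the variant, read on the opposite strand, began at -79. In Cry2 and Nr1d1 a variant on the opposite strand began at -166 and -28. Arntl held the variant of the RORE core at -6 and the core itself at 31. The 13 listed promoters of 9 clock genes also gave an E-box at -166 and a D-box at -24 in Per1, the part TGACGT at -132 in the other Per1 promoter, and D-boxes at -205 and -158 in Per3. No match lay in the windows of Clock, Npas2 and Nr1d2, and Per2 was not among the sequences. Of all 32851 promoters of this length, 7.15% held the E-box, 4.68% its variant, 2.61% the RORE core, 1.44% its variant, 3.38% the D-box, 1.79% the CRE and 7.51% the part TGACGT, which every CRE contains.

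Values are TPM, a unit of transcript abundance per length that sums to the same total in every mouse. Levels can thus be compared between genes, while read depth is not known. In Ad-Ctrl liver the level of Nr1d2 was the highest, at 75.2 ± 6.55 TPM (SD, n = 4 mice). Per1 (52.9 ± 4.99 TPM) and Nr1d1 (49.1 ± 9.05 TPM) followed, and their ranges overlapped. Below them came Cry2 with 29.3 ± 3.60 TPM, Per3 with 24.5 ± 0.821 TPM, Per2 with 22.6 ± 0.814 TPM, Clock with 13.9 ± 2.72 TPM, Cry1 with 7.07 ± 0.434 TPM and Arntl with 1.03 ± 0.285 TPM. Apart from Per1 and Nr1d1, the ranges of neighbours in this order did not overlap in the 4 control mice. Npas2 was the lowest, between 0 and 0.277 TPM over all 12 mice. In genes with known phases, the control mice thus had 49.1 TPM of the daytime gene Nr1d1 beside 1.03 TPM of Arntl, whose RNA is known to be high around dawn. The daily range of each gene in these mice is not known, so these levels give no hour of killing.

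**Figure D1:**
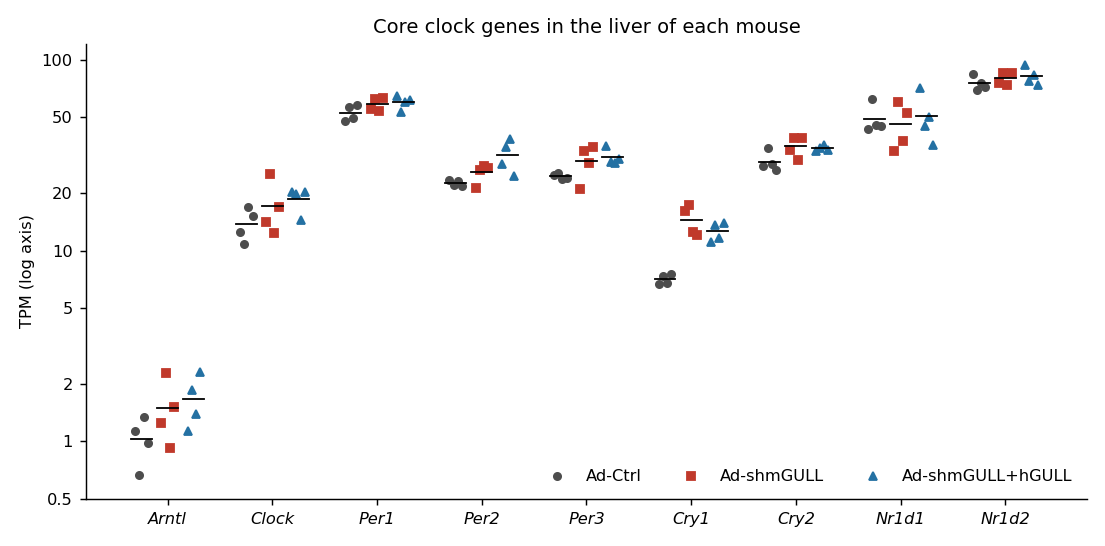
TPM of 9 clock genes (log axis) in each of the 12 mice, with circles for Ad-Ctrl, squares for Ad-shmGULL and triangles for Ad-shmGULL+hGULL, and a line at each mean of 4 mice. Npas2, at or under 0.277 TPM, is not drawn. Cry1 is the gene whose 8 values in the groups with shmGULL stand farthest above the control values.

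Groups were compared on log2(TPM + 1) with limma, in 1 model of the 3 groups, over the 16378 genes whose mean TPM was 1 or more, and p-values were adjusted over all of these genes by the Benjamini-Hochberg method. The clock genes apart from Npas2 were among them, 9 of 10. After knockdown 1 of the 9 rose and none fell at an adjusted p under 0.05, against 3.23% of all tested genes called in either direction. The gene was Cry1. The study called a gene changed where its log2 fold change was past 0.5 up or down and its p, unadjusted, was under 0.05. By that rule it was again 1 of 9, against 7.65% of all tested genes. Between Ad-shmGULL+hGULL and Ad-shmGULL, 0 of the 9 passed either rule, against 0% and 3% of all tested genes. In that comparison limma gave no gene of the whole table an adjusted p under 0.05 (smallest 0.117). Between Ad-shmGULL+hGULL and Ad-Ctrl, 1 of 9, again Cry1, passed each rule, against 2.15% and 7.49% of all tested genes. An unadjusted limma p under 0.05 was found for 2 of 9 clock genes after knockdown, against 20.2% of all tested genes. It was found for 0 of 9 in rescue minus knockdown, against 10.7% (1757 genes), and for 4 of 9 in rescue minus control, against 25.3%. The median log2 fold change of the 9 was 0.24 after knockdown, 0.08 for rescue minus knockdown and 0.32 for rescue minus control, where the medians of all tested genes were 0.09, 0.09 and 0.17. With median-of-ratios scaling the rescue minus control values were smaller, at 0.12 for Per3 (the median of the 9 in both), 0.034 for Cry2, 0.25 for Per2 and 0.23 for Clock. The last of these comparisons has most genes above 0 (81.9% of all tested genes), and 9 of 9 clock genes were above 0 there. The knockdown and rescue mice share the same control mice, and the rescue and control groups the same knockdown mice, so the comparisons are not independent of each other.

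**Figure D2:**
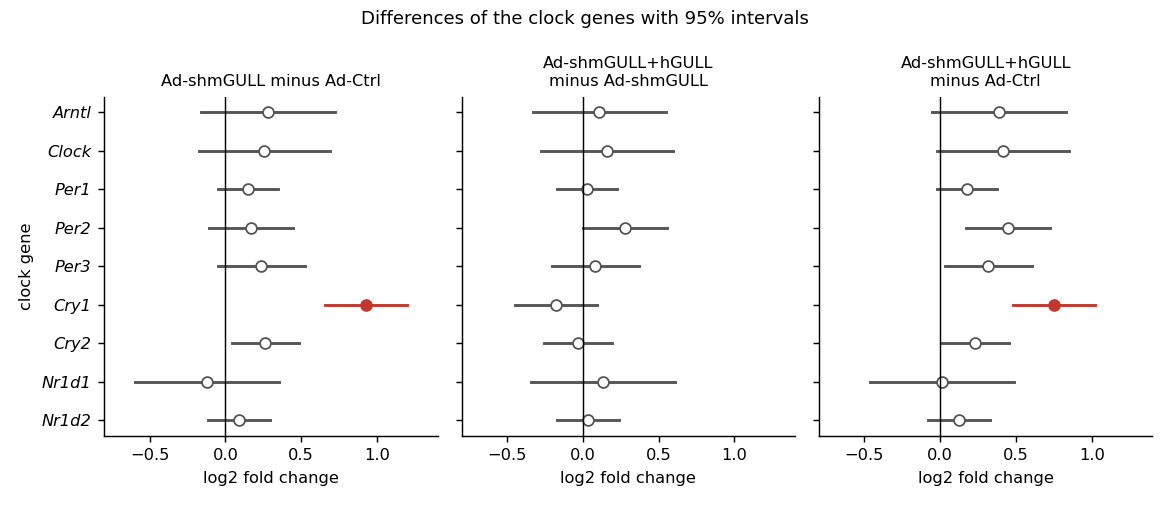
Differences in log2(TPM + 1) of 9 clock genes in the 3 comparisons, with lines for the 95% interval from limma and filled red circles where the adjusted p was under 0.05. Cry1 is filled in the 2 comparisons with Ad-Ctrl, at 0.93 and 0.75, and no gene is filled between the groups with shmGULL.

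Cry1, which encodes a strong repressor of CLOCK and BMAL1, rose after knockdown of mGULL. The 4 Ad-Ctrl mice had 6.66, 7.37, 6.74 and 7.52 TPM. The 4 Ad-shmGULL mice had 16.2, 17.3, 12.5 and 12.02 TPM, and the 4 Ad-shmGULL+hGULL mice 11.1, 13.7, 11.7 and 14.0 TPM. Each of the 8 mice with shmGULL was thus above each control mouse, while the ranges with and without hGULL overlapped. The mean was 2.05-fold that of control after knockdown, a log2 fold change of 0.93 (SE 0.12, limma adjusted p = 0.00677), which ranked 14 by p among the 16378 genes. With hGULL the mean was 1.79-fold that of control, a log2 fold change of 0.75 (SE 0.12, adjusted p = 0.0345), which is 0.58 above the median of all genes in that comparison. Rescue minus knockdown was -0.18 with a 95% interval of -0.44 to 0.09 (adjusted p = 0.611), which does not show that the levels were alike. The share of all tested genes whose 4 Ad-shmGULL mice all lay above the controls was 6.93%, and for rescue against control it was 21.4%.

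The call of Cry1 after knockdown held in each of the 10 alternatives run with all mice and each of the 12 fits without 1 mouse. The call with hGULL did not: without Ad-Ctrl replicate 2, 3 or 4 its adjusted p was 0.0979, 0.0906 or 0.0749, and without Ad-shmGULL+hGULL replicate 1, 2, 3 or 4 it was 0.122, 0.142, 0.0658 or 0.0642. Under median-of-ratios scaling, which brings the median of all genes near 0, it was 0.111 with a log2 fold change of 0.57.

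Cry2, the paralog of Cry1, did not pass the test. Its values were 27.7, 34.5, 28.6 and 26.4 TPM in Ad-Ctrl, 33.6, 39.1, 30.0 and 38.8 TPM in Ad-shmGULL and 33.2, 34.7, 35.9 and 33.7 TPM in Ad-shmGULL+hGULL. The groups overlapped through the control mouse with 34.5 TPM. The log2 fold change was 0.26 after knockdown (SE 0.10, adjusted p = 0.172) and 0.23 for rescue minus control (SE 0.10, adjusted p = 0.184), and rescue minus knockdown was -0.03 (95% interval -0.25 to 0.19). Whether Cry1 differed from Cry2 in its change was not tested.

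The Per genes, which encode the partners of CRY in the repressor complex, did not pass the test in any of the 3 comparisons. Per1 had 48.0, 56.5, 49.3 and 57.9 TPM in Ad-Ctrl, 55.0, 62.6, 53.9 and 63.4 TPM in Ad-shmGULL and 64.3, 53.1, 60.4 and 61.6 TPM in Ad-shmGULL+hGULL, so that all groups overlapped. Its log2 fold changes were 0.15 after knockdown, 0.03 for rescue minus knockdown and 0.18 for rescue minus control (adjusted p 0.396, 0.923 and 0.248).
Per2, which is also induced directly by glucocorticoids and feeding signals, had 23.4, 21.9, 23.2 and 21.8 TPM in Ad-Ctrl. It had 21.2, 26.5, 27.9 and 27.2 TPM in Ad-shmGULL and 28.6, 34.7, 38.3 and 24.7 TPM in Ad-shmGULL+hGULL. The 4 mice with hGULL lay above the 4 controls, and the spread among them, 6.08 TPM (SD), was larger than among the controls, 0.814 TPM. The log2 fold change was 0.17 after knockdown (adjusted p = 0.493), 0.28 for rescue minus knockdown (SE 0.13, unadjusted p = 0.0501, adjusted p = 0.464) and 0.45 for rescue minus control (SE 0.13, adjusted p = 0.0743).
Per3 had 25.0, 25.4, 23.7 and 23.9 TPM in Ad-Ctrl, 21.2, 33.2, 28.9 and 35.0 TPM in Ad-shmGULL and 35.4, 29.0, 28.8 and 30.3 TPM in Ad-shmGULL+hGULL. Again the 4 mice with hGULL lay above the controls, whereas in Ad-shmGULL 3 mice lay above them and 1 below. The log2 fold change was 0.24 after knockdown (adjusted p = 0.341) and 0.32 for rescue minus control (SE 0.13, adjusted p = 0.162). With Cry1, Per2 and Per3 were the 3 of 9 clock genes whose 4 Ad-shmGULL+hGULL mice lay above all controls, beside the 21.4% of all tested genes given above. After knockdown there was 1 such clock gene, and between Ad-shmGULL+hGULL and Ad-shmGULL there were 0, against 5.4% of all tested genes.

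The activators did not pass the test either. Arntl, whose product is the obligate partner in the activator complex, had 1.14, 0.667, 1.34 and 0.984 TPM in Ad-Ctrl, 1.25, 2.28, 0.928 and 1.52 TPM in Ad-shmGULL and 1.13, 1.87, 1.39 and 2.32 TPM in Ad-shmGULL+hGULL. The groups overlapped, and the log2 fold changes were 0.28 after knockdown (95% interval -0.16 to 0.72) and 0.39 for rescue minus control (95% interval -0.05 to 0.83). At levels near 1 TPM the added 1 draws these values toward 0. Clock had 12.6, 10.8, 16.9 and 15.2 TPM in Ad-Ctrl, 14.1, 25.2, 12.3 and 17.0 TPM in Ad-shmGULL and 20.4, 19.7, 14.6 and 20.3 TPM in Ad-shmGULL+hGULL. Of the mice with hGULL 3 lay above all controls, and the log2 fold change was 0.26 after knockdown (SE 0.20, adjusted p = 0.514) and 0.42 for rescue minus control (SE 0.20, adjusted p = 0.214). Npas2, the relative of Clock, was under the minimum of 1 TPM and was not tested. Its means were 0.117 ± 0.0531 TPM (SD, n = 4) in Ad-Ctrl and 0.107 ± 0.0504 TPM in Ad-shmGULL+hGULL, and in Ad-shmGULL 1 mouse was listed at 0 while the others had 0.277, 0.0560 and 0.0621 TPM.

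The Rev-erb genes did not pass the test in any comparison. Nr1d1 had 43.2, 62.6, 45.6 and 45.0 TPM in Ad-Ctrl, 33.4, 60.0, 37.4 and 52.5 TPM in Ad-shmGULL and 71.2, 44.7, 50.3 and 35.7 TPM in Ad-shmGULL+hGULL. High and low mice occurred in all 3 groups, and the log2 fold changes were -0.12 after knockdown (95% interval -0.60 to 0.36), 0.13 for rescue minus knockdown (95% interval -0.35 to 0.61) and 0.01 for rescue minus control (95% interval -0.47 to 0.49). Nr1d2 had 84.1, 69.1, 75.9 and 71.7 TPM in Ad-Ctrl, 75.6, 85.2, 73.8 and 85.5 TPM in Ad-shmGULL and 94.5, 77.7, 83.5 and 73.3 TPM in Ad-shmGULL+hGULL, and all groups overlapped. Its log2 fold changes were 0.09, 0.04 and 0.12 in the same order (adjusted p 0.653, 0.900 and 0.416). Nr1d1 (chromosome 11, 98767932 to 98775377 in GRCm38.p6) shares 1075 bases at its end with Thra, a thyroid hormone receptor gene. The spans of 6 other clock genes overlap an annotated gene too: that of Per3 shares 4714 bases with the protein-coding gene Uts2, those of Cry2, Arntl, Per2 and Clock share 23417, 18143, 14768 and 652 bases with noncoding RNA genes, and those of Clock and Npas2 hold pseudogenes. Exons were not compared, and the strand setting of the read counting is not given in the sources used here, so that the levels of these 7 genes are less certain. Cry1 (chromosome 10, 85131700 to 85185054) and Nr1d2 and Per1 overlap no other gene of the RefSeq annotation.

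Mice of the same group differed more in some clock genes than in others. The SD within groups on the log2 scale was 0.35 for Nr1d1, higher than in 81.2% of all tested genes, and 0.32 for Clock, higher than in 76.0%. It was 0.12 for Per1 and 0.13 for Nr1d2, higher than in 15.6% and 18.3%, and 0.17 for Cry1, where the median of all tested genes was 0.21. Over the 12 mice Nr1d1 covered a 2.13-fold range, Arntl a 3.49-fold range and Per1 a 1.34-fold range.

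Pairs of clock genes with known phases were compared over the 12 mice on log2(TPM + 1), with permutation tests adjusted over the 4 pairs. Arntl and Nr1d1, which differ in phase, gave Pearson r = -0.15 (two-sided permutation p = 0.648, adjusted 0.648) and Spearman rho = -0.14 (permutation p = 0.668), and r = -0.19 without the 2 mice farthest from the median of Arntl. Nr1d1 and Nr1d2, of like phase, gave r = 0.51 (permutation p = 0.0886, adjusted 0.354) and rho = 0.41 (permutation p = 0.184), and r = 0.71 without the 2 mice farthest from the median of Nr1d1. Over the 12 fits without 1 mouse r ranged from 0.25 to 0.83, with an adjusted permutation p of up to 0.726. It was under 0.05 in 1 of the 12, without Ad-Ctrl replicate 2 (r = 0.83, permutation p adjusted 0.00528). That mouse had the highest Nr1d1 and the lowest Nr1d2 of the control mice, so leaving it out favours a higher r. Per1 and Per2 gave r = 0.27 (permutation p = 0.404, adjusted 0.648), rho = 0.28 (permutation p = 0.380) and 0.07 without the 2 farthest mice. Arntl and Npas2 gave r = 0.15 (permutation p = 0.647, adjusted 0.648), rho = 0 (permutation p = 1) and -0.34 without the 2 farthest mice, with Npas2 near 0 TPM throughout. None of the 4 pairs passed the test with all 12 mice, and with group means removed r was -0.16, 0.59, -0.21 and 0.24 for these pairs in the order given. In each of the 4 pairs the sign of r was not the same in all groups. Groups of 4 mice are too few for a coefficient of their own. For Arntl and Nr1d1 the sign was negative in Ad-Ctrl and Ad-shmGULL+hGULL and positive in Ad-shmGULL. In Ad-Ctrl the mouse with the highest Nr1d1, replicate 2, had the lowest Arntl. For Nr1d1 and Nr1d2 the sign was negative in Ad-Ctrl and positive in the other groups.

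The genes most like a clock gene over the 12 mice were taken from all tested genes by Pearson r, as a description of mice from 3 groups. Closest to Nr1d1 was Ciart (r = 0.91), which encodes a circadian repressor of CLOCK and BMAL1, followed by A930004J17Rik, Marveld2, Ripk2 and Gm13414 (r from 0.82 to 0.89). The lowest were Gm8539, Cebpd, Mcrip2, Gins4 and Sdsl (r from -0.81 to -0.77). Ciart had 43.2 TPM in the control mouse with the most Nr1d1, where the other controls had 35.8 to 37.3 TPM, and 46.0 TPM in the Ad-shmGULL+hGULL mouse with the most Nr1d1, where the others had 32.6 to 37.1 TPM. In Ad-shmGULL the mouse with the most Nr1d1 had 37.2 TPM of Ciart, below the 41.8 TPM of replicate 4. The log2 fold change of Ciart after knockdown was -0.19 (adjusted p = 0.489). Closest to Arntl were Snx33 (r = 0.97), Slc6a9, Gm43581, Tpcn1 and Ap1m1 (0.89 to 0.90), with Clock at 0.83 (rank 43), and the lowest were Ttc36, Cbs, Agxt, Mir1954 and Zfp593 (-0.85 to -0.80). Among those closest to Per2 were 4930404H11Rik, 4933412E12Rik, Gm12286 and Cep135 (0.88 to 0.93), and the lowest were Pim3, Gm17669, Gm9176, Gm50475 and Pla2g12a (-0.81 to -0.78). Cry1 was added after its values were seen: the closest were Enpep, Plcg1, Tacc2, Lrrc28 and Eif4g1 (0.94 to 0.96), and the lowest Ncald, Akr1c6, C9, Mup14 and Smim14 (-0.93 to -0.88).

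**Figure D3:**
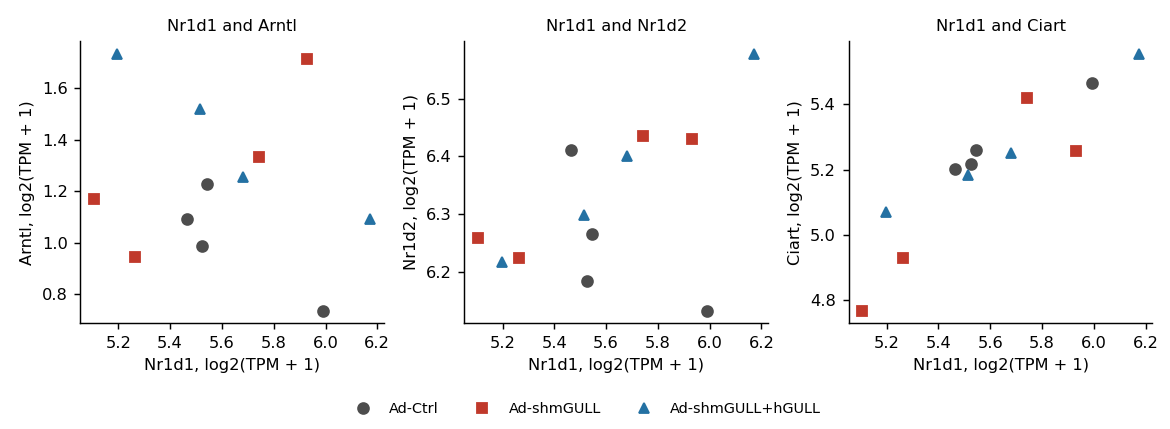
Nr1d1 against Arntl, Nr1d2 and Ciart in log2(TPM + 1), 1 point per mouse, with circles for Ad-Ctrl, squares for Ad-shmGULL and triangles for Ad-shmGULL+hGULL. Ciart is higher in mice with more Nr1d1 (r = 0.91), Nr1d2 less closely so (0.51), and Arntl gives -0.15 over all mice. Within groups, Arntl falls at each step of rising Nr1d1 only in Ad-shmGULL+hGULL. In Ad-Ctrl and Ad-shmGULL the mice follow no strict order.

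Of 23 other clock genes (ROR receptors, the PAR bZIP factors, the DEC repressors, kinases and ubiquitin ligases of the loop, and known outputs), 21 were tested. After knockdown 2 rose and 0 fell at an adjusted p under 0.05. In rescue minus knockdown 0 passed, and in rescue minus control 1 rose and 0 fell, where 3.23%, 0% and 2.15% of all tested genes were called. The median log2 fold changes of the 21 were 0.20, 0.04 and 0.21, beside 0.09, 0.09 and 0.17 for all tested genes. The list was chosen with earlier results of these data known.
Wee1, a cell cycle kinase driven by the clock through E-boxes, rose in both comparisons with Ad-Ctrl, as Cry1 did. It had 26.9, 16.7, 19.8 and 17.4 TPM in Ad-Ctrl, 39.9, 42.3, 30.4 and 32.2 TPM in Ad-shmGULL and 41.0, 35.6, 37.5 and 29.0 TPM in Ad-shmGULL+hGULL, and neither group with shmGULL overlapped control. Its log2 fold change was 0.82 after knockdown (SE 0.16, adjusted p = 0.0194) and 0.81 for rescue minus control (SE 0.16, adjusted p = 0.0390). Rescue minus knockdown of Wee1 was -0.02 (limma adjusted p = 0.976).
Bhlhe40 encodes DEC1, a repressor that competes for E-boxes. It rose after knockdown, with 72.4, 63.2, 51.5 and 54.9 TPM in Ad-Ctrl against 123, 136, 101 and 89.6 TPM in Ad-shmGULL, a log2 fold change of 0.88 (SE 0.18, adjusted p = 0.0231). With hGULL its values were 102, 86.8, 91.0 and 58.9 TPM, of which 3 lay above all controls, and the log2 fold change to control was 0.46 (adjusted p = 0.137). Rescue minus knockdown of Bhlhe40 was -0.41 (limma adjusted p = 0.436). Hlf, a PAR bZIP factor that binds D-boxes, did not pass the test at 0.45 after knockdown (adjusted p = 0.0857) and 0.55 for rescue minus control (adjusted p = 0.0542). Usp2, which encodes a deubiquitinase, did not pass at 0.36 after knockdown (adjusted p = 0.126). Dbp, a relative of Hlf and a common readout of the clock, had means of 118, 139 and 118 TPM in the 3 groups (adjusted p = 0.508 after knockdown).

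The calls of Wee1 and Bhlhe40 after knockdown were above 0.05 without Ad-Ctrl replicate 2 (0.0599 and 0.0558), replicate 3 (0.0545 and 0.0740), replicate 4 (0.0560 and 0.0595) or Ad-shmGULL replicate 2 (0.0590 and 0.0703). In rescue minus control, Wee1 was above 0.05 without Ad-Ctrl replicate 2 (0.122), 3 (0.102) or 4 (0.0855), without Ad-shmGULL replicate 4 (0.0532) and without Ad-shmGULL+hGULL replicate 1 (0.141), 2 (0.142), 3 (0.0728) or 4 (0.0629). With all mice, Wee1 and Bhlhe40 after knockdown were above 0.05 with only the 2 groups compared (0.0665 and 0.0531), and Bhlhe40 also with no filter (0.0534). In rescue minus control, Wee1 was above it with no filter (0.0783), median-of-ratios scaling (0.111) and quantile normalization (0.108), without the 20 highest genes (0.0821) and without the mean-variance trend (0.0534).

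**Figure D4:**
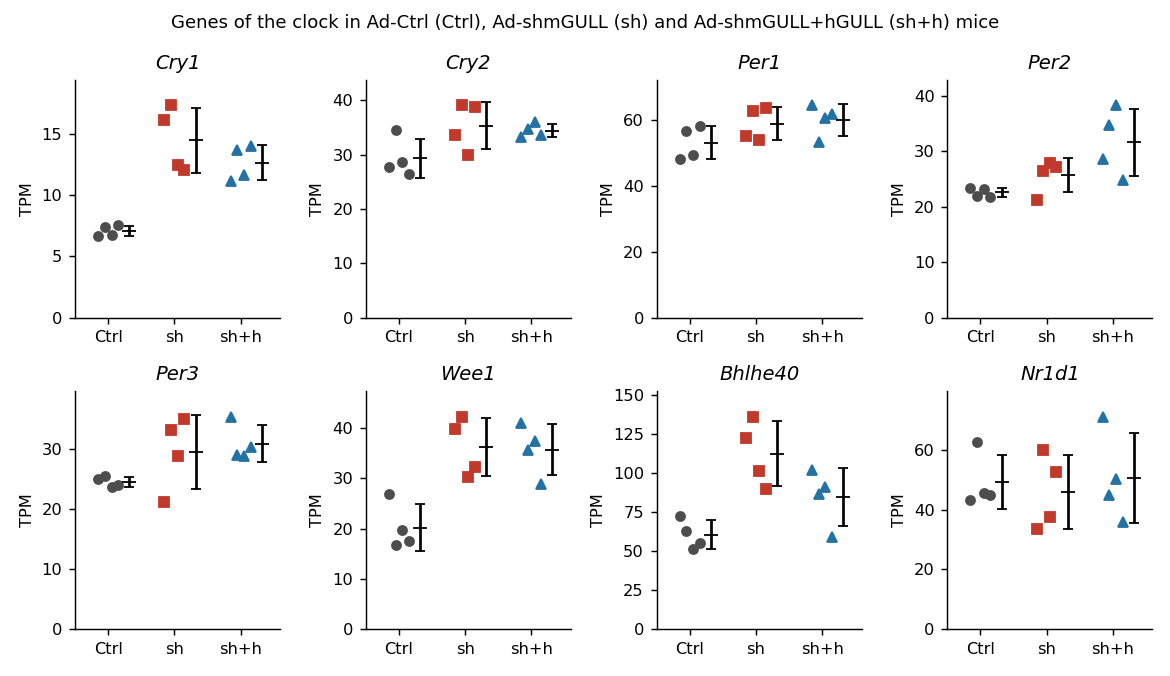
TPM of 6 core clock genes and of Wee1 and Bhlhe40 in each mouse, with the mean ± SD of 4 mice in black beside each group and axes that start at 0. In Cry1 and Wee1 all 8 mice with shmGULL lie above the 4 Ad-Ctrl mice, and in Nr1d1 the groups overlap.

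Lists of genes that respond to signals known to set the liver clock were read beside the clock genes. Of 12 CREB and CRTC target genes, 11 were tested. After knockdown 1 rose and 1 fell, where 3.23% of all tested genes were called. G6pc, the glucose-6-phosphatase gene, had 454 to 567 TPM in the controls and 821 to 1180 TPM after knockdown (log2 fold change 0.93, adjusted p = 0.00606). Crem, a CREB family gene, had 7.51 to 9.22 TPM in the controls and 5.02 to 6.37 TPM after knockdown (log2 fold change -0.50, adjusted p = 0.0227). In Ad-shmGULL+hGULL, G6pc was between 668 and 833 TPM (0.54 from control, adjusted p = 0.0441) and Crem between 8.18 and 9.07 TPM (-0.01 from control). Crem was thus back in the range of the controls in all 4 mice with hGULL, whereas rescue minus knockdown was 0.49 with an adjusted p of 0.282. For G6pc rescue minus knockdown was -0.39 (limma adjusted p = 0.369), and 3 of the 4 mice with hGULL lay below all Ad-shmGULL mice. Pck1 (-0.75, adjusted p = 0.0950) and Pde4b (0.30, adjusted p = 0.395) did not pass after knockdown. By the study's threshold G6pc was higher and Pck1 lower after knockdown, against 7.65% of all tested genes. The same held in rescue minus control (Pck1 -0.65), against 7.49%. The study reported both G6pc and Pck1 as higher by qRT-PCR in its knockdown mice. The TPM here went in the same direction for G6pc and in the opposite direction for Pck1. Without 1 mouse, the adjusted p of Crem after knockdown was above 0.05 where Ad-Ctrl replicate 2 (0.0665), 3 (0.0727) or 4 (0.0602) was left out, and that of G6pc was at most 0.0258. For rescue minus control, the adjusted p of G6pc ranged from 0.0288 to 0.149 over these fits and was under 0.05 in 4 of 12. With all mice it was above 0.05 in 6 of 10 alternatives, at most 0.300 with median-of-ratios scaling, and that of Crem after knockdown was 0.113 with only the 2 groups compared. Of 12 glucocorticoid target genes, 12 were tested and limma gave 0 an adjusted p under 0.05 in any comparison, beside the same 3.23%, 0% and 2.15%. The study's threshold was passed by 7.65%, 3% and 7.49% of all tested genes in the 3 comparisons. Of the 12, 4 passed it after knockdown, 0 in rescue minus knockdown and 2 in rescue minus control. Those with the smallest p after knockdown were Cdkn1a (1.22, adjusted p = 0.0624), Mt1 (0.94, 0.0809), Mt2 (0.99, 0.106) and Tat (-0.80, 0.131).

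Among libraries, 15525 to 16929 genes per mouse were above 1 TPM, and the 20 genes of highest mean TPM took 29.4% to 32.9% of all TPM in Ad-Ctrl, 26.3% to 34.2% in Ad-shmGULL and 24.6% to 26.6% in Ad-shmGULL+hGULL. Pearson r between mice on log2(TPM + 1) was between 0.954 and 0.986. The hepatocyte markers Alb, Ttr, Apoa1, Serpina1c, Cyp2e1 and Tat had a summed level of 80389 to 115440 TPM in Ad-Ctrl, 82602 to 99145 TPM in Ad-shmGULL and 71711 to 86003 TPM in Ad-shmGULL+hGULL, as in liver tissue. Of 4 endothelial markers 1 rose after knockdown and 0 passed in rescue minus control, where 3.23% and 2.15% of all tested genes were called. They summed to 74.5 to 123 TPM in Ad-Ctrl, 118 to 146 TPM in Ad-shmGULL and 114 to 133 TPM in Ad-shmGULL+hGULL, and these ranges overlap. Stab2 passed after knockdown (0.54, adjusted p = 0.0476, above 0.05 in 10 of the 12 fits without 1 mouse, at most 0.120, and in 4 of 10 alternatives with all mice, at most 0.155), and Kdr (0.40), Pecam1 (0.31) and Clec4g (0.22) did not. Their part in the differences of the clock genes was not tested. The summed ranges of the 6 Kupffer cell and macrophage markers (414 to 734, 397 to 697 and 492 to 637 TPM), the 6 of T and NK cells (14.6 to 47.0, 15.2 to 31.4 and 24.1 to 35.4 TPM) and the 4 of stellate cells overlapped between groups, as did the 2 of B cells and the 3 each of neutrophils and cholangiocytes. Beside 3.23%, 0% and 2.15% of all tested genes in the 3 comparisons, 0 of these genes had an adjusted p under 0.05. Those with the smallest p after knockdown were Apoa1, Tat, Serpina1c and Ttr of hepatocytes (log2 fold changes -0.80 to 0.14), Marco, Csf1r, Adgre1 and Cd5l of Kupffer cells and macrophages (-1.04 to 0.39), and Cd3g, Cd3e, Nkg7 and Cd8a of T and NK cells (-0.21 to 0.27). For the other lists they were Reln, Lrat, Pdgfrb and Dcn of stellate cells (-0.02 to 0.35), Cd79a of B cells (0.38), S100a8 and S100a9 of neutrophils (0.30 for both) and Krt19 and Epcam of cholangiocytes (-0.08 to -0.04). By the study's threshold, Apoa1, Tat and Marco were lower in both comparisons with Ad-Ctrl. S100a8 (-0.78) and S100a9 (-0.84) were lower by it in rescue minus knockdown. Of all tested genes 7.65%, 3% and 7.49% passed it in the 3 comparisons. In these lists no marker was at 0 in all 12 mice.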

How the data were processed

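Liver RNA-Seq of 12 mice was analysed, 4 in each group, and the samples were grouped by their treatment labels. The authors trimmed the reads with fastp 0.23.2, checked them with FastQC 0.11.8, aligned them with HISAT2 2.2.1.0 to GRCm38.p6 and counted them on GENCODE VM24 genes; the submitters' processing notes name featureCounts and Subread 2.0. They deposited the values as TPM, normalized to transcript length and to a fixed total of 1000000 per sample, from strand-specific libraries. The number of reads per mouse is therefore unknown, and no counting interval or detection limit is given; precision is given by the spread between 4 mice.

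From these values log2(TPM + 1) was computed and compared with limma 3.58.1 (R 4.3.3) over the 16378 genes whose mean TPM was 1 or more, in 1 model of 3 groups with a mean-variance trend, no covariate and Benjamini-Hochberg adjustment over all tested genes. The fit was tested on simulated data with planted differences larger than those of the clock genes. That test does not show how often differences of their size are called. Pairs of genes were tested by 100000 permutations, two-sided, in Python 3.11.15, and figures were drawn with matplotlib 3.10.9. Named were all 10 clock genes, the genes of the other lists with an adjusted p under 0.05 and, in lists with fewer than 4 of these, those with the smallest p after knockdown. Dbp, Ciart in each mouse and the genes most like Cry1 were added after their values were seen, and so were the letters of the motifs and the count of genes whose groups do not overlap. The members, the lists and the tests were chosen with earlier results of these data known. The alternatives concerned the pseudocount (0.1), the filter (none, or a mean of 5), the scaling (median of ratios, quantiles, or without the 20 highest genes), the fit (2 groups alone, without trend, with array weights, or with the replicate number as a block) and the samples (each of 12 mice left out). Samples of the same number did not deviate together in all pairs, and the numbers were not taken to pair mice. A few genes are not reported here, and the lists are counted without them.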

Additional observations from a re-analysis of the deposited data

Results flagged for a closer look

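In 30 groups of 4 mice (10 clock genes in 3 groups), 3 mice stood apart from the others of their group by a gap that takes up most of the range of the group, which chance does in about 1 of 20 groups. Clock was 14.6 TPM in Ad-shmGULL+hGULL replicate 3, where the others had 19.7 to 20.4 TPM, a gap of 0.888 of the range. Nr1d1 was 62.6 TPM in Ad-Ctrl replicate 2, where the others had 43.2 to 45.6 TPM, a gap of 0.873 of the range. Npas2 was 0.182 TPM in Ad-shmGULL+hGULL replicate 1, where the others had 0.0764 to 0.0857 TPM, a gap of 0.912 of the range, at levels under the minimum for the test.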

How the results depend on the processing

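The call of Cry1 after knockdown held in 10 of 10 alternatives with all mice (log2 fold change 0.81 to 1.01, adjusted p 0.00399 to 0.0374) and in 12 of 12 fits without 1 mouse (0.84 to 1.005). In rescue minus control it held in 6 of 10 and 5 of 12 (0.70 to 0.80), and the number of clock genes with an adjusted p under 0.05, 1 as reported, was 0 with no filter, with median-of-ratios scaling, with quantile normalization and without the 20 highest genes. There Cry1 had an adjusted p of 0.0685, 0.111, 0.1102 and 0.0760. That number was 2 with only the 2 groups compared (Per3 and Cry1), where 10.3% of all tested genes were called, 4 with array weights (Per2, Per3, Cry1 and Cry2), where 19.4% were, and 0 to 2 without 1 mouse. The number past the study's threshold in that comparison was 1 to 2 without 1 mouse. Among all genes, 352 were called in rescue minus control at that level. The count was 9 with no filter, 11, 11 and 12 with median-of-ratios scaling, quantile normalization and without the 20 highest genes, 35 without the trend, 71 with the replicate block, 568 with a mean TPM of at least 5, 1693 with only the 2 groups, 3184 with array weights and 3 to 1068 without 1 mouse. After knockdown it was 529, and 236 with no filter, 344 without the trend, 33 with only the 2 groups and 165 to 1057 without 1 mouse. The shares of all genes called rest on these counts. The median of all genes there moved from 0.17 to -0.003 with median-of-ratios scaling, and the share of genes past the study's threshold that were higher moved from 91.4% to 67.2%.

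Small differences that were not called changed sign. With median-of-ratios scaling Nr1d2 was -0.013 after knockdown. Rescue minus knockdown was then -0.070 for Per1, -0.014 for Per3 and -0.061 for Nr1d2, and rescue minus control -0.024 for Per1, -0.19 for Nr1d1 and -0.075 for Nr1d2. The correlations were -0.034 for Arntl and Npas2 and -0.14 for Per1 and Per2. With quantile normalization rescue minus knockdown was -0.054 for Per1, -0.025 for Per3 and -0.036 for Nr1d2, rescue minus control was -0.15 for Nr1d1 and -0.033 for Nr1d2, and the correlation of Per1 and Per2 was -0.15. Without the 20 highest genes rescue minus knockdown was -0.039 for Per1 and -0.031 for Nr1d2, rescue minus control was -0.082 for Nr1d1, and the correlation of Per1 and Per2 was -0.057. With array weights Nr1d1 was 0.013 after knockdown, and rescue minus knockdown was -0.016 for Per1 and -0.042 for Per3. Without 1 mouse, Nr1d1 ranged from -0.26 to 0.014 after knockdown, from -0.047 to 0.28 for rescue minus knockdown and from -0.17 to 0.16 for rescue minus control. Rescue minus knockdown ranged from -0.0057 to 0.25 for Arntl, -0.012 to 0.082 for Per1, -0.066 to 0.17 for Per3, -0.11 to 0.018 for Cry2 and -0.032 to 0.088 for Nr1d2. The correlation of Arntl with Nr1d1 ranged from -0.38 to 0.066 and that with Npas2 from -0.31 to 0.28. The cause of these changes was not tested.

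The replicate number as a block left 1, 0 and 1 clock genes called in the 3 comparisons, with an adjusted p for Cry1 of 0.0101 after knockdown and 0.0486 for rescue minus control. It changed no other call of the clock genes. Deviations of same-numbered mice correlated between -0.24 and 0.15 over 12 pairs, and 8 of 24 comparisons of a mouse with another group were highest for its own number. Arntl gave no value with a mean TPM of at least 5. The alternatives for Wee1, Bhlhe40, G6pc, Crem and Stab2 were chosen after seeing the data. The depth per mouse is unknown, so the precision of Arntl and Npas2, the lowest genes, rests on the spread between 4 mice alone.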
